A study of Mus musculus with 49 samples.

Results

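The genes described here are 10 mouse genes of the NRF2 antioxidant response and of the defense against ferroptosis: Nfe2l2, Keap1, Slc7a11, Gclc, Gclm, Gpx4, Txnrd1, Srxn1, Nqo1 and Acsl4. They were chosen by name, and all 10 were among the 55487 genes of the count table. RNA sequencing had been done on 49 libraries from 6 HuHER2 transgenic mice, a strain that forms mammary tumors driven by the human HER2 receptor. The sources used here do not name the promoter of the transgene. All 6 mice bore palpable tumors, were watched for tumors by palpation from an age of 7 months. Each received 1 intravenous injection of either PBS (3 mice) or BP (3 mice, 5 mg Fe per mouse), an iron oxide nanoparticle preparation. The design text gives 7 days from injection to collection, whereas a treatment protocol label gives 31 days. Whole tissue (bulk, 36 libraries) was sequenced from each mouse for the mammary tumor and for 5 other organs, namely liver, spleen, bone marrow, lung and lymph node. From BP mice, a second section of each organ but lung, where no nanoparticles were detected, was dissociated by digestion, and what a magnet retained was collected (nanoparticle-associated cells). There were 3 such libraries in each of 4 organs (bone marrow, liver, spleen and tumor) and 1 from lymph node (BP mouse 2).

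NRF2, the product of Nfe2l2, is a transcription factor that KEAP1 hands over for degradation as long as the cell is not under oxidative or electrophilic stress. When KEAP1 is modified by such stress, NRF2 accumulates and binds antioxidant response elements near genes for glutathione synthesis, thioredoxin reduction, quinone reduction and iron handling. Ferroptosis is a cell death driven by iron and by peroxides of membrane lipids. SLC7A11 imports the cystine from which glutathione is made, GPX4 uses glutathione to reduce lipid peroxides, and ACSL4 builds the polyunsaturated lipids that are prone to peroxidation. Macrophages of spleen, liver and bone marrow take up iron from aged red cells and from injected particles, so these genes are of interest in tissue that received an iron load.

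The antioxidant response element is the sequence feature that ties most of these genes to NRF2, so its matches are shown first. The core TGACNNNGC was searched on both strands of RefSeq promoter windows (GRCm38.p6, 250 bases before to 50 after a transcription start). Windows were given for 9 of the 10 genes, not for Gclc. The core was found for 4 of these 9 genes (Nfe2l2, Gclm, Txnrd1 and Srxn1), against 13.99% of the 27025 genes with a window of that length. In the 250 bases before the start it was found for 3 of the 9 genes, against 11.52% of all. Some genes have several windows. Counted by window, the core was found in 4 of the 14 windows of these genes, against 12.39% of all 32851 windows. For the 250 bases before the start these were 3 of 14 and 10.16%. The Srxn1 match lay partly or wholly past the start and is not printed. The other 3 matches follow with their surroundings, 5′ to 3′ on the strand of the gene, the match in capitals; for Gclm and Txnrd1 the core reads on the opposite strand.
Nfe2l2 promoter, chr2:75704855-75704913, minus strand: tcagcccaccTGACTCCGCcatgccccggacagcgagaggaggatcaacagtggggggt
Gclm promoter, chr3:122245383-122245471, plus strand: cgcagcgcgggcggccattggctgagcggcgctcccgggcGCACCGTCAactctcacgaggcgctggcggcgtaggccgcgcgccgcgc
Txnrd1 promoter, chr10:82859074-82859162, plus strand: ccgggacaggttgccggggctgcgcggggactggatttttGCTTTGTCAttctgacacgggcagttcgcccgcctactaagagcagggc
The matches began 240, 134 and 92 bases before the start of the window's transcript of Nfe2l2, Gclm and Txnrd1. Txnrd1 had 3 windows for different starts, and the match lay in 1 of them, whose start is inside the gene and not at its outer end. A match is a run of letters in this window, and sequence further from the start was not searched.

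Library totals ran from 9362264 to 19734849 expected counts. Against these totals before TMM scaling, 3 counts, the limit a count of 0 allows, stood for 0.152 to 0.32 CPM. All other CPM are counts divided by the TMM-scaled library total, and the limit was not computed on that scale. TMM factors of liver libraries ran from 0.2997 (associated cells, BP mouse 2) to 0.625 (bulk, BP mouse 2). In liver the limit is therefore higher on the TMM scale than before scaling. Every CPM value below is on 1 scale common to all 49 libraries. Marker genes were high in the organs as labelled. The summed level of 8 hepatocyte genes was 147800 to 218200 CPM in bulk liver, and that of 8 mammary epithelial genes was 9460 to 15250 CPM in bulk tumor. Among bulk tumors, BP mouse 1 stood apart by adipocyte genes (9487 CPM summed over 6 genes, against 5.55 to 943 in the other 5). BP mouse 2 stood apart by skeletal muscle genes (3179 CPM over 5 genes, against 1.04 to 2.80) and PBS mouse 1 by neutrophil genes (19590 CPM over 8 genes, against 25.9 to 2008). Mitochondrial transcripts held 48.2 to 57.2% of the counts of nanoparticle-associated liver cells and 5.67 to 7.06% of those of bulk liver from the same mice. In bulk tissue, fewer cells of a type and less RNA per cell cannot be told apart.

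Before any treatment effect, the genes differed by organ in PBS mice. Each of the 10 varied among the 6 organs (edgeR quasi-likelihood F-test with Benjamini-Hochberg adjustment, adjusted p from 2.18e-12 for Acsl4 to 0.019 for Gpx4), as did 90.5% of all genes tested. Gpx4 was the exception in stability: its adjusted p became 0.328 without PBS mouse 2 and 0.142 without PBS mouse 3. Levels per kilobase of exon, the scale on which genes can be set beside each other, ranged from 0.0286 CPM per kb for Slc7a11 in liver to 390 CPM per kb for Gpx4 in lymph node.

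Nfe2l2 (ENSMUSG00000015839, GRCm38 chromosome 2, 75675513 to 75704641, minus strand) was highest in lung at 130 ± 2.1 CPM (SD, n = 3), followed by bone marrow at 113 ± 3.9 and liver at 112 ± 20.6, and these 3 organs did not differ from each other (edgeR adjusted p 0.336 to 1). Spleen (69.8 ± 6.2), tumor (61.2 ± 21.2) and lymph node (60.6 ± 5.6) formed the lower end and did not differ from each other either (adjusted p 0.51 to 0.815). Keap1 (ENSMUSG00000003308, chromosome 9, 21229730 to 21239361, minus strand) was highest in liver at 109 ± 22.8 CPM, and the other 5 organs stood between 48.4 and 65.4 CPM with no pair of them past the threshold (adjusted p 0.0717 to 0.930). The exons of Keap1 overlap those of Gm16754 on the opposite strand, and the strand setting of the counting is not given in the sources used here.

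The glutathione synthesis genes pointed to liver, and the cystine carrier away from it. Gclc (ENSMUSG00000032350, chromosome 9, 77754535 to 77794485, plus strand), the catalytic subunit of the rate-limiting enzyme, stood at 401, 268 and 361 CPM in the livers of PBS mice 1, 2 and 3 and at 15.8, 19.1 and 17.0 in their tumors, the lowest organ. Gclm (ENSMUSG00000028124, chromosome 3, 122245557 to 122270732, plus strand), the modifier subunit of the same enzyme, was also highest in liver (422 ± 89.5 CPM, n = 3) and second in bone marrow (256 ± 19.2), with lymph node lowest (29.1 ± 8.7). Slc7a11 (ENSMUSG00000027737, chromosome 3, 49892526 to 50443614, minus strand) was lowest in liver, where the 3 PBS libraries held 1, 7 and 1 counts (0.153, 0.932 and 0.11 CPM). Its other organs ranged from 3.13 ± 0.53 CPM in tumor to 6.94 ± 3.15 in lymph node, and no pair among these 5 organs passed the threshold (adjusted p 0.0563 to 0.826). The exons of Gclm overlap those of Gm6061 on the same strand and of Gm17494 on the opposite strand, and the division of reads among them is uncertain.

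Among the reducing enzymes, Txnrd1 (ENSMUSG00000020250, chromosome 10, 82833951 to 82897712, plus strand), which regenerates thioredoxin, was highest in liver (173, 204 and 223 CPM in PBS mice 1, 2 and 3) and tumor (138 ± 7.0) and lowest in spleen (43.1 ± 2.8). Srxn1 (ENSMUSG00000032802, chromosome 2, 152105516 to 152111376, plus strand), which restores over-oxidized peroxiredoxins, stood at 58.8 ± 11.6 CPM in liver and at 14.4 ± 3.1 in spleen, the lowest organ. Nqo1 (ENSMUSG00000003849, chromosome 8, 107388225 to 107403206, minus strand), a quinone reductase often used as the readout of NRF2, was highest in tumor but scattered there, with 15.9, 53.9 and 34.6 CPM in PBS mice 1, 2 and 3. Gpx4 (ENSMUSG00000075706, chromosome 10, 80047166 to 80056439, plus strand) had the highest level per kilobase of the 10 genes in each organ, and in tumor its mean of 184 CPM per kb stood beside 175 for Acsl4. In lymph node Gpx4 ran from 220 over 566 to 1233 CPM, the last in PBS mouse 2, whose adipocyte genes summed to 11950 CPM. Mitochondrial transcripts held 28.6% of the counts of that library, against 8.79 and 11.6% in the other PBS lymph nodes. The processed pseudogene Gpx4-ps2 carried 3.08 to 6.66% of the Gpx4 level across libraries, and counts shared between such copies are uncertain.

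Acsl4 (ENSMUSG00000031278, chromosome X, 142317993 to 142390535, minus strand), the pro-ferroptotic gene of the group, was the most organ-bound. It stood at 1038, 903 and 894 CPM in the tumors of PBS mice 1, 2 and 3, and its next organs were lung (127 ± 21.4 CPM) and liver (88.8 ± 9.5). Bone marrow, lymph node and spleen, at 36.2 to 37.7 CPM, did not differ from each other (edgeR adjusted p 0.882 to 0.974).

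**Figure D1:**
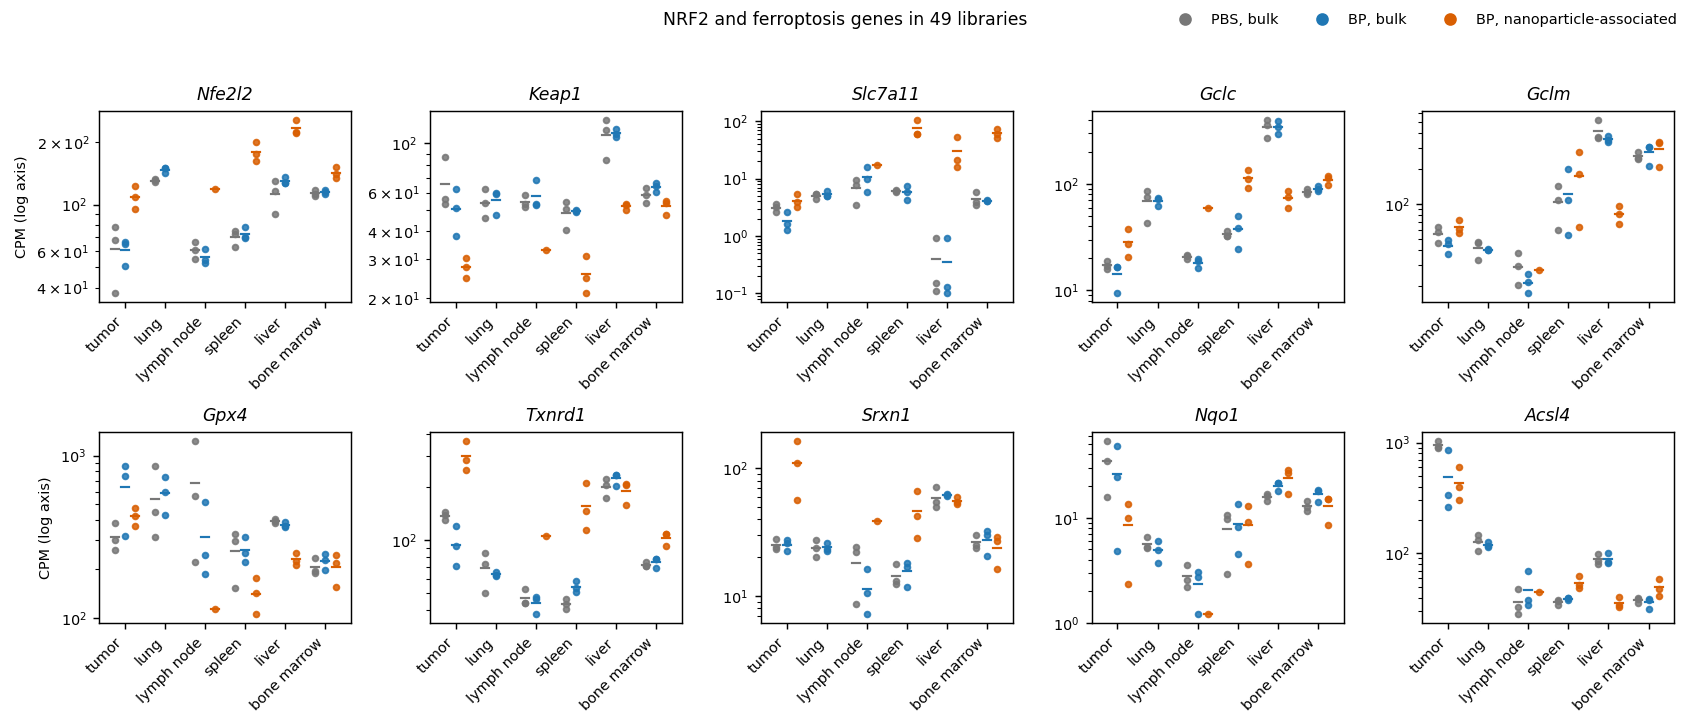
CPM of the 10 genes (log axis, values under 0.1 drawn at 0.1) in 49 libraries, by organ; each point is a library and each short line a group mean, in grey for PBS bulk, blue for BP bulk and orange for nanoparticle-associated cells of BP mice. Slc7a11 in spleen, liver and bone marrow shows the widest gap between orange and blue points, and Acsl4 is highest in tumor.

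The comparison of BP with PBS bulk tissue asked whether the injected particles changed these genes in whole organs. None of the 10 genes rose or fell in any of the 6 organs by edgeR's quasi-likelihood test, among 59 tests (Slc7a11 was too low to be tested in liver), with adjusted p from 0.797 to 1.0. Of all genes tested, 0% were called in each organ other than liver and 0.0235% (3 of 12740) in liver. At an unadjusted p under 0.05 stood 3 of the 59 tests: Gpx4 in tumor, Nqo1 in liver and Nqo1 in bone marrow. Of all genes tested, 867 of 14535 stood under that cut in tumor, 454 of 12740 in liver and 184 of 13969 in bone marrow. In lung these were 137 of 15714, in lymph node 554 of 15341 and in spleen 108 of 15195. DESeq2 likewise called none of the 10 genes in any organ, while it called 177 genes in all in tumor, 0 in lung, 11 in lymph node, 0 in spleen, 29 in liver and 3 in bone marrow. Where the libraries of a group agreed closely, the estimates were tight. In bone marrow the log2 differences of the 10 genes lay between -0.08 and 0.39 with standard errors of 0.08 to 0.24. In liver they lay between -0.24 and 0.35 with standard errors of 0.09 to 0.17. In tumor the standard errors were wider, at 0.22 to 0.77.

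In tumor Acsl4 stood at 333, 261 and 864 CPM in BP mice 1, 2 and 3, below the 894 to 1038 of the PBS tumors in each, yet BP mouse 3 lay next to the PBS range. Its log2 change of -0.95 ± 0.47 (standard error) had an edgeR adjusted p of 0.797, which became 0.0418 when the spread was estimated over 48 libraries. That setting called 1482 of 18954 genes in tumor, where the main fit called 0 of 14535. The lower BP mice, 1 and 2, are those whose tumors held the adipocyte and the muscle transcripts given above, and the part of these in the difference was not tested. Txnrd1, at 71.1, 91.8 and 119 CPM in BP tumors against 144, 139 and 130 in PBS tumors, also did not overlap (log2 change -0.52 ± 0.25, adjusted p 0.797). These were 2 of the 10 genes without overlap in tumor, both lower, where 5.33% of all genes tested were lower without overlap.

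Gpx4 went the other way in tumor, with 857, 746 and 321 CPM in BP mice 1, 2 and 3 against 386, 263 and 301 in PBS mice, and the ranges overlapped through BP mouse 3 (log2 change 1.08 ± 0.45, edgeR adjusted p 0.797). The same 2 tumors were thus high in Gpx4 and low in Acsl4. Mitochondrial transcripts held 19.5 and 8.33% of their counts, against 3.97% in BP mouse 3 and 3.06 to 4.06% in PBS tumors, and the part of this in either difference was not tested. In lymph node Gpx4 had the opposite sign (log2 change -1.10 ± 0.66, adjusted p 0.866) with overlapping ranges. Slc7a11 in tumor was 2.63, 1.25 and 1.63 CPM in BP and 3.66, 2.59 and 3.15 in PBS mice, which overlapped by a small margin (log2 change -0.72 ± 0.50, adjusted p 0.816).

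In liver Nqo1 was higher in each BP mouse, at 17.8, 21.3 and 21.3 CPM against 17.0, 14.5 and 16.0 in PBS mice (log2 change 0.35 ± 0.15, edgeR adjusted p 0.999). It was the 1 gene of the 9 tested in liver whose groups did not overlap, where 4.04% of all genes were higher without overlap. Nqo1 in bone marrow was 14.1, 18.4 and 17.9 CPM in BP and 12.5, 11.6 and 14.3 in PBS mice, ranges that overlapped (log2 change 0.39 ± 0.15, adjusted p 1.0). In lung, which took up no detectable particles, Nfe2l2 stood at 150, 141 and 150 CPM in BP and 132, 128 and 131 in PBS mice (log2 change 0.15 ± 0.14, adjusted p 1.0). In spleen, the organ that clears aged red cells, Txnrd1 stood at 58.0, 53.4 and 50.6 CPM in BP and 40.2, 43.1 and 45.9 in PBS mice without overlap (log2 change 0.30 ± 0.13, adjusted p 1.0). Acsl4 in spleen, at 39.3, 39.95 and 37.69 CPM against 36.9, 37.64 and 34.0, overlapped on the scale of its fit. Gclc in lymph node stood at 16.2, 19.5 and 19.1 CPM in BP and 21.0, 19.6 and 21.5 in PBS mice (log2 change -0.18 ± 0.17, adjusted p 0.866). In these directions 2.27% of all genes stood without overlap in lung (higher), 2.67% in spleen (higher) and 3.1% in lymph node (lower). In bone marrow none of the 10 genes did, against 5.8% of all genes in either direction. Whether the BP effect differed among organs was tested in 1 fit of the 36 bulk libraries, and none of the 10 genes passed (edgeR adjusted p 0.567 to 1), as against 0.0913% of all genes. Without BP mouse 3, Acsl4 passed that test (adjusted p 0.0167).

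**Figure D2:**
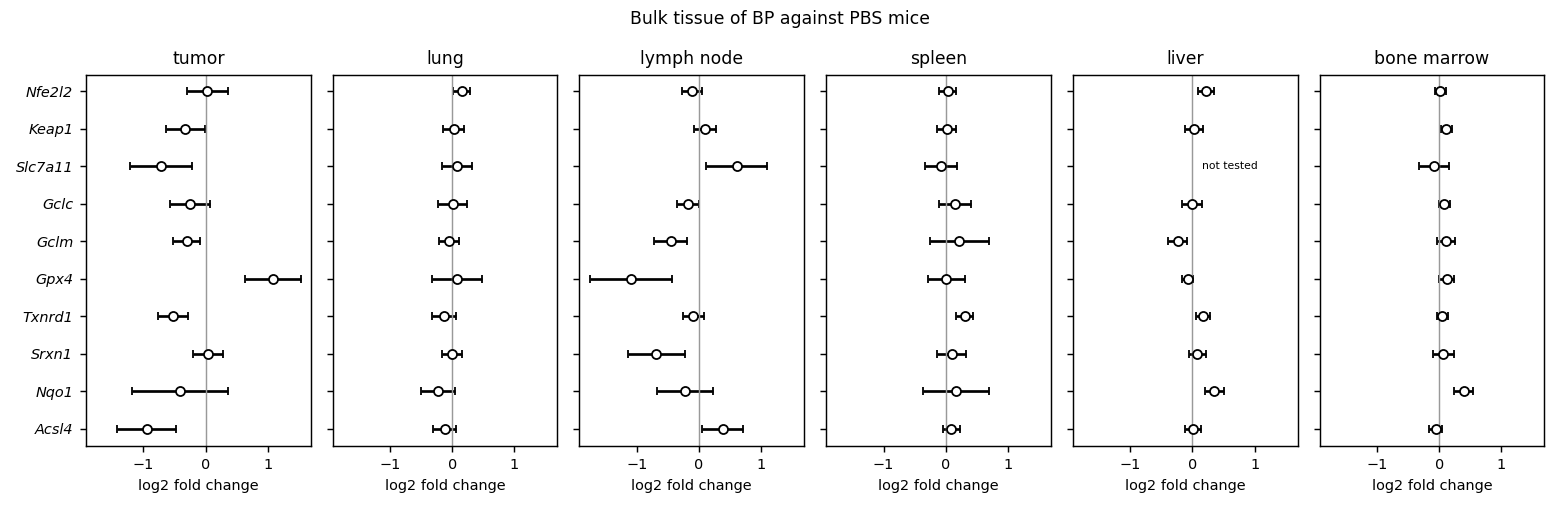
Log2 fold change of BP over PBS bulk tissue for each of the 10 genes in 6 organs; points are edgeR estimates and bars standard errors (3 against 3 libraries), and a filled point would mark an adjusted p under 0.05. No point is filled, and tumor and lymph node carry the longest bars.

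The comparison of nanoparticle-associated cells with bulk tissue of the same BP mice asked how the magnet-selected cells differ from the whole organ. It shares its BP bulk libraries with the comparison of BP with PBS, so the values of the 2 comparisons are not independent. Of the 10 genes, 2 rose in tumor, 6 rose and 2 fell in spleen, 2 rose and 5 fell in liver, and 2 rose in bone marrow (edgeR quasi-likelihood test, adjusted p under 0.05). Among all genes tested, 5.87% rose and 3.17% fell in tumor, 20.2% and 22% in spleen, 37.3% and 37.5% in liver, and 4.8% and 2.9% in bone marrow. The median log2 change of the 10 genes was 0.70 in tumor, 0.95 in spleen, -0.31 in liver and 0.21 in bone marrow, beside -0.03, -0.04, 0.01 and -0.01 for all genes tested. Since both fractions come from the same mouse, the mouse can enter as a block: 2 genes then rose in tumor, 7 rose and 2 fell in spleen, 2 rose and 5 fell in liver, and 5 rose and 1 fell in bone marrow. With the block, 3.07% of all genes rose and 1.2% fell in tumor, 26.8% and 27.2% in spleen, 36.7% and 37% in liver, and 11.7% and 8.29% in bone marrow. Without overlap on the scale of each fit, 6 of the 10 genes stood higher and 1 lower in tumor (19.4% and 18.8% of all genes). In spleen these were 6 and 2 (24.3% and 31.7%), in liver 2 and 5 (34.8% and 43.8%), and in bone marrow 5 and 1 (14.6% and 15.8%).

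The magnet-selected cells also differ from bulk tissue by digestion and by cell content, and these cannot be told apart from the particles. The 10 genes of the dissociation list (immediate early and heat shock genes such as Fos, Egr1 and Hspa1a) summed to 4322 to 7270 CPM in associated tumor cells against 351 to 489 in bulk, and to 3082 to 9620 against 238 to 267 in spleen. In liver and bone marrow they summed to 17030 to 20850 against 217 to 278 and to 1212 to 1257 against 224 to 279. Of these 10 genes, 9 rose in tumor, 10 in spleen, 10 in liver and 9 in bone marrow, and none was at 0. In liver the 8 hepatocyte genes fell to 24410 to 79180 CPM from 147800 to 186500 in bulk, with 8 of 8 lower without overlap. In the same organ 6 endothelial genes stood at 3438 to 4925 against 230.1 to 315 (6 of 6 higher) and 8 macrophage genes at 1638 to 3084 against 743 to 987 (2 of 8 higher without overlap). The 8 resident macrophage genes summed to 1348 to 3399 CPM against 1735 to 2481 in bulk liver, with 1 of 8 higher and 0 lower without overlap. All listed monocyte, neutrophil, B cell and T cell genes (6, 8, 6 and 6) were higher in associated liver cells without overlap. In spleen B cell genes summed to 1539 to 1892 CPM against 2921 to 4047 (4 of 6 lower without overlap), T cell genes to 177 to 204 against 233 to 395 (4 of 6 lower) and neutrophil genes to 2174 to 4404 against 789 to 2522 (3 of 8 higher). In spleen and tumor the macrophage genes were lower in associated cells, at 265 to 643 against 667 to 1014 CPM (5 of 8 lower without overlap) and at 158 to 196 against 415 to 556 CPM (7 of 8). In tumor 4 of 8 mammary epithelial genes were higher and 2 lower without overlap. Of the adipocyte, monocyte and T cell genes of tumor, 5, 4 and 4 of 6 were lower and 0 higher. In bone marrow 3 of 6 erythroid genes were lower and 0 higher without overlap. Of 8 neutrophil genes there, 3 were higher and 2 lower. None of the hepatocyte, endothelial or macrophage genes was at 0 in all libraries of a group. The part of these differences in the results that follow was not tested.

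The regulators moved in opposite directions. Nfe2l2 stood at 200, 176 and 162 CPM in associated spleen cells of BP mice 1, 2 and 3 against 77.7, 69.6 and 69.4 in their bulk spleen, and at 256, 220 and 222 CPM in associated liver cells against 126, 128 and 135 in bulk liver. It was thus higher in each mouse, and it rose in both organs (spleen log2 change 1.35 ± 0.13, edgeR adjusted p 0.00071; liver 1.00 ± 0.12, 4.84e-05). In tumor Nfe2l2 was 109, 123 and 94.9 CPM against 64.8, 66.0 and 50.6 (log2 change 0.85 ± 0.21, adjusted p 0.0529), and DESeq2 and the spread over 48 libraries called it. These settings called more genes in tumor, 3126 of 17788 and 5770 of 18954, against 1321 of 14615 in the main fit. In bone marrow Nfe2l2 was 151, 141 and 134 CPM against 113, 118 and 115 (log2 change 0.32 ± 0.09, adjusted p 0.0704), which became 0.0232 with mouse as a block.

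Keap1, the inhibitor, was lower in associated cells of each mouse in all 4 organs. In spleen it stood at 21.0, 31.1 and 24.7 CPM against 49.8, 49.8 and 48.9 in bulk, and in liver at 52.5, 53.5 and 50 against 107, 110 and 116. It fell in both (spleen log2 change -0.92 ± 0.15, edgeR adjusted p 0.00424; liver -0.94 ± 0.11, 4.37e-05). The tumor values were 27.7, 30.5 and 24.8 CPM against 62.2, 38.3 and 51.1 (log2 change -0.87 ± 0.25, adjusted p 0.0681), and upper-quartile scaling, DESeq2 and the spread over 48 libraries called this difference. In tumor these settings called 1417 of 14615, 3126 of 17788 and 5770 of 18954 genes, against 1321 of 14615 in the main fit. In bone marrow Keap1 stood at 47.7, 53.8 and 54.7 CPM against 60.2, 66.4 and 63.9 (log2 change -0.27 ± 0.10, adjusted p 0.155, and 0.0417 with mouse as a block).

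Slc7a11, the cystine carrier, showed the widest gap of the 10 genes in spleen, liver and bone marrow. In spleen it stood at 107.0, 60.0 and 59.3 CPM in associated cells of BP mice 1, 2 and 3 and at 7.55, 4.20 and 5.81 in bulk (log2 change 3.73 ± 0.34, edgeR adjusted p 0.000634). In bone marrow it stood at 52.0, 73.7 and 60.1 CPM against 4.11, 4.23 and 4.10 (log2 change 3.92 ± 0.17, adjusted p 1.82e-05). Within a mouse the ratio was 10.2 to 14.3 in spleen and 12.7 to 17.4 in bone marrow.

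In liver the bulk libraries of BP mice held 1, 7 and 0 counts of Slc7a11, as low as those of PBS mice, and the associated cells held 123, 307 and 82 counts (16.2, 53.3 and 20.9 CPM). The fitted log2 change of 6.51 ± 0.76 (edgeR adjusted p 5.14e-05) rests on these few bulk counts. It was 8.60 without bulk mouse 2 and 5.79 without associated mouse 2. In tumor the step was small: 3.89, 5.30 and 3.16 CPM against 2.63, 1.25 and 1.63, higher in each mouse but not past the threshold (log2 change 1.16 ± 0.46, adjusted p 0.138). Slc7a11 kept its rise in spleen, liver and bone marrow under each setting run and with each library left out.

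**Figure D3:**
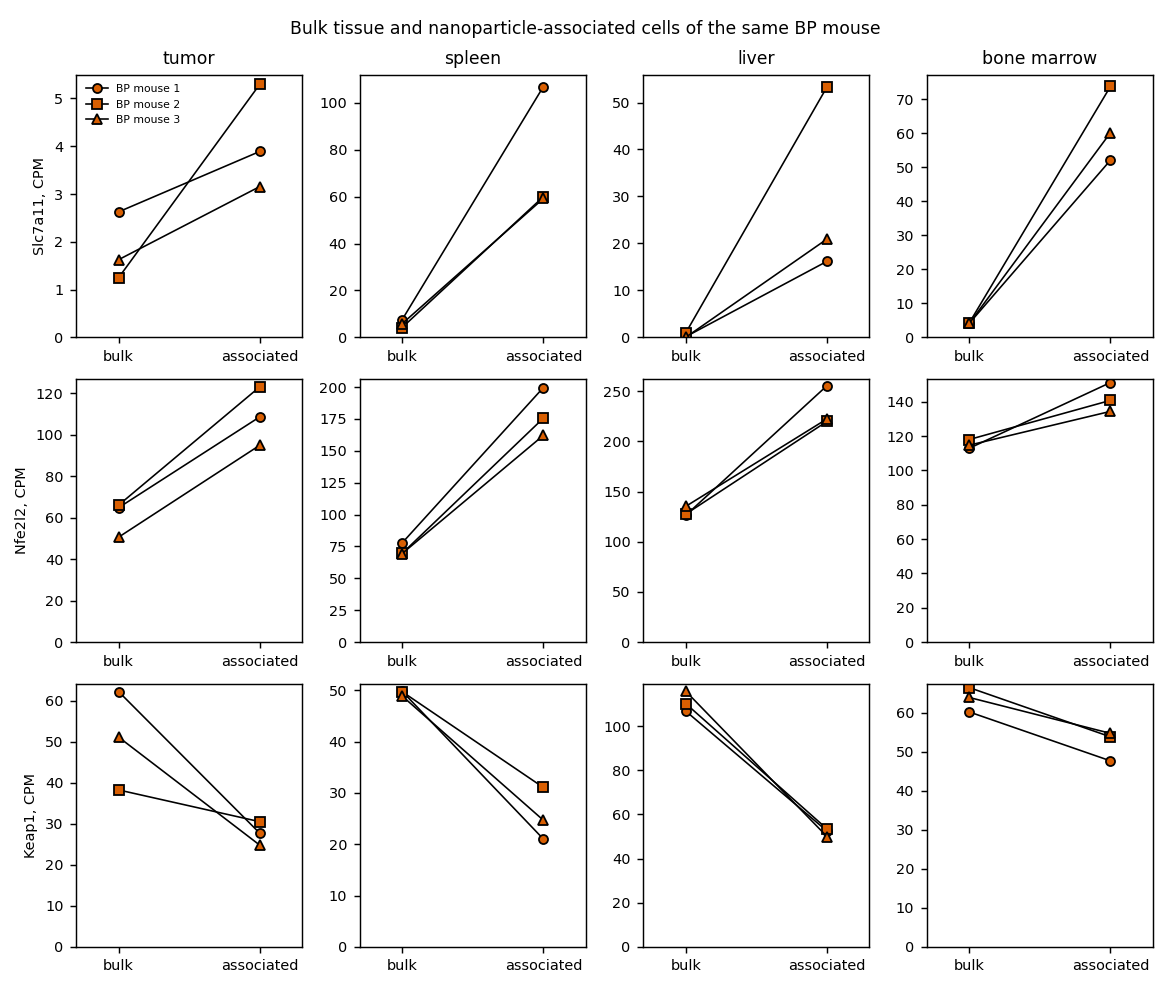
CPM (linear axis from 0) of Slc7a11, Nfe2l2 and Keap1 in bulk tissue and nanoparticle-associated cells, by organ; each line joins the 2 libraries of 1 BP mouse. Slc7a11 and Nfe2l2 go up and Keap1 goes down in all 12 pairs each. The 12 pairs come from 3 mice, and in the main fits Nfe2l2 and Keap1 passed the threshold in spleen and liver only.

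The glutathione synthesis genes split between spleen and liver. Gclc rose in associated spleen cells, at 91.1, 136 and 112 CPM against 24.7, 50.5 and 38.7 in bulk (log2 change 1.60 ± 0.28, edgeR adjusted p 0.00499). In liver Gclc fell, at 75.0, 60.1 and 86.2 CPM against 292, 389 and 341 (log2 change -2.05 ± 0.18, adjusted p 7.19e-06). Gclm fell alike, at 96.4, 66.7 and 82.4 against 384, 350 and 339 (log2 change -1.97 ± 0.16, edgeR adjusted p 4.29e-06). The hepatocyte genes given above fell in the same libraries. In tumor Gclc was higher in each mouse (27.4, 37.4 and 20.6 CPM against 16.5, 9.399 and 16.5). Gclc changed there by 1.01 ± 0.34 on the log2 scale (edgeR adjusted p 0.0945). With the spread over 48 libraries, which called 5770 of 18954 genes in tumor, Gclc had an adjusted p of 0.000782. It was also higher in each mouse in bone marrow (97.3, 120 and 113 against 85.1, 95.9 and 88.7; 0.31 ± 0.12, adjusted p 0.136, and 0.0352 with mouse as a block).

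Gclm in spleen varied more between mice than between fractions. Bulk spleen of BP mice 1, 2 and 3 held 54.5, 199 and 108 CPM, and associated cells 63.2, 275 and 181, so that the fractions overlapped (log2 change 0.54 ± 0.61, edgeR adjusted p 0.513). Within each mouse the associated cells were higher, by a ratio of 1.16 to 1.67, and with mouse as a block Gclm rose (adjusted p 0.0113). Within each fraction the erythroid genes ordered the 3 mice as Gclm did, with sums over 6 genes of 18510, 88590 and 37560 CPM in bulk and 12520, 83220 and 51540 in associated cells of mice 1, 2 and 3. The part of erythroid RNA in the spread of Gclm between mice was not tested. The order of the mice by the other marker lists is not given. In tumor Gclm stood at 61.4, 73.0 and 56.5 CPM against 37.7, 45.3 and 49.2 in bulk (log2 change 0.54 ± 0.19, adjusted p 0.102), and in bone marrow at 206, 335 and 335 against 210.2, 308 and 309 (log2 change 0.11 ± 0.22, adjusted p 0.812).

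The thioredoxin arm rose in tumor and spleen. Srxn1 stood at 111, 165 and 56.8 CPM in associated tumor cells against 25.9, 27.3 and 22.4 in bulk tumor (log2 change 2.14 ± 0.38, edgeR adjusted p 0.0284). In spleen it stood at 66.6, 28.6 and 42.7 in associated cells against 16.8, 18.2 and 11.7 in bulk (1.60 ± 0.34, 0.0098). Txnrd1 stood at 284, 366 and 251 CPM against 71.1, 91.8 and 119 in tumor (log2 change 1.69 ± 0.26, adjusted p 0.0207), and at 211, 114 and 145 against 58.0, 53.4 and 50.6 in spleen (1.58 ± 0.24, 0.00301). Neither gene overlapped between fractions in these organs, and the associated tumor cells had the highest Txnrd1 values of all 49 libraries.

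Leaving out any 1 of 5 of the 6 tumor libraries ended 1 or both of the tumor calls. Of Srxn1 and Txnrd1, neither passed without associated mouse 1, without associated mouse 2 or without bulk mouse 2. Srxn1 alone passed without associated mouse 3, Txnrd1 alone passed without bulk mouse 1, and both passed without bulk mouse 3. In liver Srxn1 was 59.9, 52.4 and 54.8 CPM against 60.3, 63.4 and 62.0 in bulk, lower without overlap on this scale but with overlap on the scale of the liver fit (log2 change 0.01 ± 0.11, edgeR adjusted p 0.969). Txnrd1 in liver was 205, 159 and 207 against 234, 234 and 203 (-0.08 ± 0.15, 0.649). In bone marrow Txnrd1 rose slightly, at 107, 108 and 91.7 CPM against 69.0, 77.9 and 77.9 (log2 change 0.47 ± 0.11, adjusted p 0.0361), a call lost under upper-quartile scaling, with the spread over 48 libraries, and without any 1 of 4 libraries (associated mouse 2 or each bulk mouse). Srxn1 in bone marrow was 16.1, 26.9 and 28.7 CPM against 20.6, 30.0 and 32.1 (log2 change -0.18 ± 0.25, adjusted p 0.709).

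Nqo1 did not pass in any organ by the test per organ. Its tumor values scattered by mouse, at 9.97, 2.33 and 13.5 CPM in associated cells against 24.3, 4.82 and 48.2 in bulk, lower in each mouse (log2 change -1.56 ± 0.88, edgeR adjusted p 0.265). With the spread over 48 libraries, which called 5770 of 18954 genes in tumor, Nqo1 had an adjusted p of 0.0268. In liver it was 26.7, 16.7 and 28.3 CPM against 17.8, 21.3 and 21.3 (log2 change 0.40 ± 0.21, adjusted p 0.116, and 0.00674 without associated mouse 2). The spleen means of 8.59 ± 4.71 CPM in associated cells and 8.745 ± 4.54 in bulk and the log2 change of -0.36 ± 0.24 in bone marrow (adjusted p 0.406) gave no call either.

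Gpx4, the enzyme at the centre of ferroptosis defense, was lower in associated cells of spleen and liver. It stood at 105.2, 175 and 144 CPM against 250, 316 and 222 in spleen and at 225, 251 and 212 against 366, 389 and 366 in liver, and it fell in both (log2 change -0.86 ± 0.22, edgeR adjusted p 0.0195; -0.55 ± 0.13, 0.00348). The spleen call was lost without associated mouse 3, and both calls were lost with the spread over 48 libraries. In tumor it was 474, 422 and 370 CPM against 857, 746 and 321, lower in 2 of 3 mice (log2 change -0.61 ± 0.40, adjusted p 0.330), and in bone marrow 155, 219 and 244 against 198, 228 and 246 (-0.10 ± 0.18, 0.793).

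Acsl4 fell in associated liver cells, at 40.1, 34.2 and 32.9 CPM against 101.6, 82.0 and 83.1 in bulk (log2 change -1.15 ± 0.14, edgeR adjusted p 5.76e-05). In spleen it rose, at 62.1, 51.4 and 48.3 CPM against 39.3, 39.95 and 37.7 (log2 change 0.51 ± 0.13, adjusted p 0.0213), a call lost under upper-quartile scaling, with the spread over 48 libraries and without any 1 of the bulk libraries. Bone marrow values were 58.8, 47.6 and 41.5 CPM against 38.8, 38.3 and 31.8 (log2 change 0.46 ± 0.14, adjusted p 0.0926, and 0.0113 with mouse as a block). In tumor Acsl4 was 400, 302 and 600 CPM against 333, 261 and 864, higher in mice 1 and 2 and lower in mouse 3 (log2 change -0.14 ± 0.49, adjusted p 0.870).

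**Figure D4:**
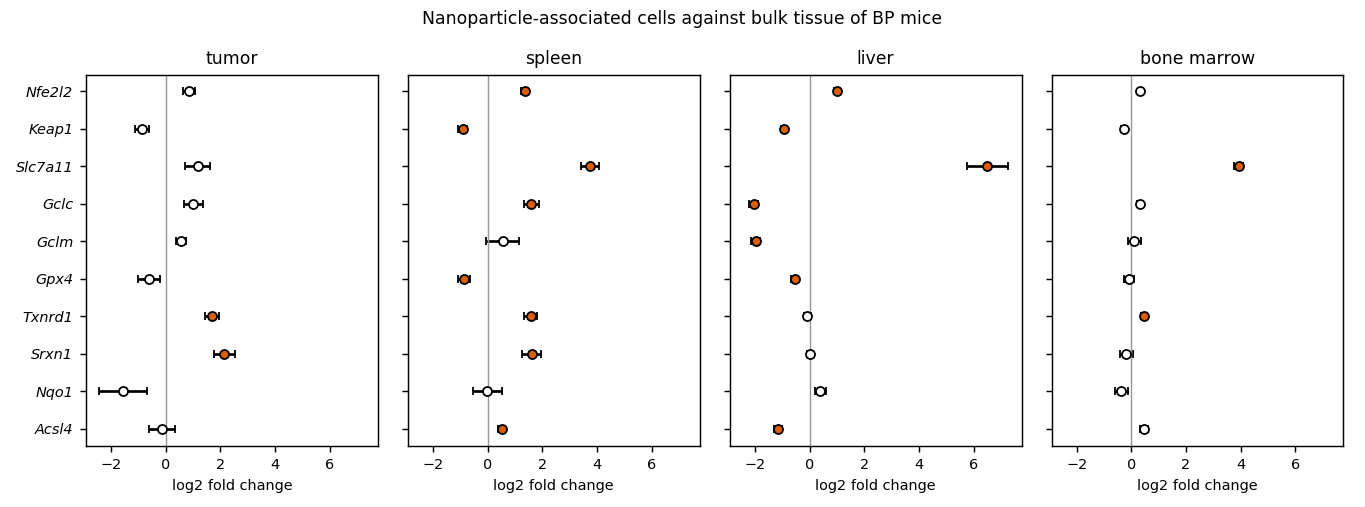
Log2 fold change of nanoparticle-associated cells over BP bulk tissue for each of the 10 genes in 4 organs; points are edgeR estimates, bars standard errors (3 against 3 libraries), and filled points have an adjusted p under 0.05. Slc7a11 reaches 6.51 in liver, and the filled points of Gclc, Gclm and Acsl4 lie left of 0 in liver.

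Whether the step from bulk tissue to associated cells differed among the 4 organs was tested in 1 fit of 24 libraries. It differed for 8 of the 10 genes (edgeR joint F-test, adjusted p 7.04e-07 for Gclc to 0.0148 for Keap1), against 58.3% of all genes tested. Gpx4 (adjusted p 0.320) and Nqo1 (0.241) did not pass. The results of Keap1 (without mouse 1 or 3), Acsl4 (without mouse 1) and Gclm (without mouse 3) were lost when those mice were left out, at adjusted p of 0.0685, 0.295, 0.116 and 0.0801. Set against the mean of the other 3 organs, liver had a larger step for Slc7a11 (log2 difference 3.502 ± 0.71, edgeR adjusted p 0.000328). This step rests on bulk liver values of 0 to 0.927 CPM. The level in associated cells was lower in liver (mean 30.1 CPM) than in spleen (75.4) and bone marrow (62.0). The step of liver was lower for Gclc (-3.12 ± 0.31, 1.02e-07), Gclm (-2.46 ± 0.48, 0.000255), Acsl4 (-1.52 ± 0.36, 0.00154), Txnrd1 (-1.41 ± 0.24, 6.75e-05) and Srxn1 (-1.27 ± 0.37, 0.0069). Of all genes, 29.4% had a larger and 24.3% a lower step in liver.

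Tumor differed by a smaller step of Slc7a11 (log2 difference -3.55 ± 0.57, edgeR adjusted p 0.000212). Its steps of Srxn1 (1.66 ± 0.37, 0.00307), Gclc (1.06 ± 0.30, 0.0152) and Txnrd1 (1.02 ± 0.24, 0.00477) were larger. Of all genes, 8.43% had a larger and 15.4% a smaller step in tumor. The mean of the other organs included liver, where the log2 change was -2.05 for Gclc. For Slc7a11 it was 6.51 there, over bulk values of 0 to 0.927 CPM. In the fits per organ, Gclc changed by 1.01 in tumor and 1.60 in spleen, Txnrd1 by 1.69 and 1.58, and Srxn1 by 2.14 and 1.60. Spleen had larger steps of Gclc (1.89 ± 0.30, 0.000312), Txnrd1 (0.93 ± 0.24, 0.0115) and Nfe2l2 (0.67 ± 0.15, 0.00483). Bone marrow had smaller ones of Nfe2l2 (-0.69 ± 0.15, 0.0056) and Srxn1 (-1.38 ± 0.37, 0.0181) and a less negative one of Keap1 (0.69 ± 0.17, 0.0125). A larger step in spleen was found for 9.57% of all genes, and a larger or smaller one in bone marrow for 7.78% and 7.22%.

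Among the associated cells themselves, 9 of the 10 genes varied by organ (edgeR F-test over 12 libraries, adjusted p 6.99e-08 to 0.00121), against 87.6% of all genes, and Nqo1 did not pass (0.0669). Nqo1 passed without BP mouse 2 (0.0166) and without a filter on low counts (0.0333). Gclm no longer passed without BP mouse 3 (0.0643). Slc7a11 was lowest in associated tumor cells at 4.12 ± 1.09 CPM (SD, n = 3) and highest in spleen (75.4 ± 27.3), which did not differ from bone marrow (62.0 ± 11.0; adjusted p 0.538). Txnrd1 and Srxn1 were highest in associated tumor cells, at 300.5 ± 59.2 and 111 ± 53.9 CPM, and lowest in bone marrow, at 102.4 ± 9.3 and 23.9 ± 6.8. Acsl4 kept the order of bulk tissue at its top, with 434 ± 152 CPM in tumor and 35.7 to 53.9 in the other 3 organs.

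Other genes of the pathway were read from 4 lists. No gene of any of the 4 lists rose or fell between BP and PBS bulk tissue in any organ. Of 11 regulators of NRF2, 6 rose and 0 fell in associated tumor cells, 8 and 1 in spleen, 6 and 2 in liver, and 3 and 0 in bone marrow (edgeR, adjusted p under 0.05), with list medians of 0.88, 0.88, 0.52 and 0.27 on the log2 scale. Of all genes tested, 5.87% rose and 3.17% fell in tumor, 20.2% and 22% in spleen, 37.3% and 37.5% in liver, and 4.8% and 2.9% in bone marrow. Maff and Mafk, small MAF proteins that pair with NRF2 or with its competitor BACH1, rose in all 4 organs, with log2 changes of 3.68 to 4.65 for Maff and 0.70 to 3.25 for Mafk on the scale of each fit. In bone marrow Maff was low, at 0.57 ± 0.42 CPM in bulk and 7.77 ± 0.23 in associated cells. Sqstm1, an autophagy adaptor that binds KEAP1, stood at 1696 ± 892 CPM in associated tumor cells against 321 ± 98.6 in bulk (log2 change 2.41 ± 0.47, edgeR adjusted p 0.0328) and also rose in spleen, liver and bone marrow. Bach2, a BACH1 relative of lymphoid cells, was among the leading 3 in liver (log2 change 1.77 ± 0.25, adjusted p 0.000183), where B cell genes rose from 9.17 to 17.5 CPM in bulk to 90.3 to 168 summed over 6 genes. Of those that fell, Rbx1, a part of the ubiquitin ligase that KEAP1 serves, changed by -0.46 ± 0.11 in spleen (adjusted p 0.0129) and -0.31 ± 0.12 in liver (0.0409), and Btrc, the other ligase adaptor, by -0.40 ± 0.14 in liver (0.028).

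Of 39 further NRF2 targets, 36 were tested in tumor and 2 rose, 35 in spleen with 4 up and 5 down, 37 in liver with 9 up and 22 down, and 33 in bone marrow with 2 up; none fell in tumor or bone marrow. The background shares of all genes were 5.87% up in tumor, 20.2% up and 22% down in spleen, 37.3% and 37.5% in liver, and 4.8% up in bone marrow. List medians were -0.47, -0.06, -0.73 and -0.04 on the log2 scale. Osgin1, an oxidative stress growth inhibitor, rose in tumor (log2 change 2.41 ± 0.43, edgeR adjusted p 0.0284), spleen (2.73 ± 0.27, 0.000796) and bone marrow (0.74 ± 0.16, 0.0292) and fell in liver (-1.71 ± 0.23, 0.000129), the last chosen after its value was seen. Hmox1, which degrades heme, stood at 85.5 ± 18.1 CPM in associated tumor cells against 24.4 ± 5.7 in bulk (log2 change 1.81 ± 0.28, adjusted p 0.0211) and at 340 ± 97.4 in associated liver cells against 108 ± 29.8 (1.81 ± 0.25, 0.000138).

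In spleen the iron store gene Fth1 (log2 change 1.13 ± 0.15, edgeR adjusted p 0.00203) and the peroxidase Prdx6 (1.10 ± 0.11, 0.000892) rose, and Gstm2, Abcc3 and Cbr1 fell, by 1.77, 1.02 and 0.72 on the log2 scale. Prdx6 also rose in bone marrow (0.62 ± 0.11, adjusted p 0.0129). In liver Akr1b8, an aldo-keto reductase, stood at 344 ± 44.0 CPM against 17.0 ± 2.2 in bulk (log2 change 4.49 ± 0.16, adjusted p 1.55e-07) and the exporter Abcc1 at 39.1 ± 6.9 against 6.31 ± 1.77 (2.78 ± 0.24, 6.27e-06). The leading genes that fell in liver were Gsta2, Gstm3 and Abcc2, detoxification genes of hepatocytes, by 4.32, 4.06 and 4.03 on the log2 scale, in the libraries where hepatocyte genes fell.

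Of 30 further ferroptosis genes, 29 were tested in tumor (3 rose, 1 fell), 30 in spleen (10 and 5), 27 in liver (13 and 13) and 30 in bone marrow (4 and 1), with medians of 0.27, 0.43, -0.53 and -0.08 on the log2 scale. These counts stand beside 5.87% of all genes up and 3.17% down in tumor, 20.2% and 22% in spleen, 37.3% and 37.5% in liver, and 4.8% and 2.9% in bone marrow. Slc3a2, the heavy chain that SLC7A11 needs at the membrane, rose with it in spleen and bone marrow. It stood at 441 ± 48.2 CPM against 97.5 ± 20.1 in spleen (log2 change 2.21 ± 0.19, edgeR adjusted p 0.000562) and 345 ± 89.9 against 157 ± 42.4 in bone marrow (1.17 ± 0.25, 0.0291). Chac1, an enzyme that breaks down glutathione, was near 0 in bulk and rose in the same organs. It stood at 36.5 ± 18.5 CPM against 0.34 ± 0.04 in spleen (6.78 ± 0.49, 0.000339) and 34.0 ± 9.0 against 1.96 ± 0.71 in bone marrow (4.13 ± 0.31, 0.000269). Ptgs2, used as a marker of ferroptosis and also an inducible gene of inflammation, rose in all 4 organs by 3.40 to 7.75 on the log2 scale.

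In tumor Gch1 (log2 change 1.99 ± 0.43, edgeR adjusted p 0.0395), which makes the antioxidant cofactor tetrahydrobiopterin, and Acsl3 (1.26 ± 0.22, 0.028), which builds protective monounsaturated lipids, rose and Dpp4 fell (-1.62 ± 0.37, 0.0441). Slc40a1, the iron exporter, fell in spleen, at 69.3 ± 13.9 CPM against 411 ± 90.7 (-2.53 ± 0.23, 0.000634), and in bone marrow, at 132 ± 13.3 against 190 ± 4.2 (-0.50 ± 0.10, 0.0279). It is also one of the resident macrophage markers, which summed to 248 to 661 CPM in associated spleen cells against 984 to 1454 in bulk. Also in spleen, Alox5 and Dpp4 fell by 1.67 and 1.02 on the log2 scale. In liver Ptgs2, Alox12 and Slc1a5 led those that rose (log2 changes of 7.54, 3.79 and 3.25) and Gls2, Scd1 and Slc39a14 those that fell (by 4.24, 3.65 and 3.19).

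Of 18 selenoproteins and peroxidases, 0 of 18 tested were called in tumor, 2 rose and 7 fell in spleen, 2 rose and 11 fell in liver, and of 17 tested in bone marrow Gpx3, the plasma glutathione peroxidase, alone fell (log2 change -1.04 ± 0.20, edgeR adjusted p 0.0206). The shares of all genes up and down were 5.87% and 3.17% in tumor, 20.2% and 22% in spleen, 37.3% and 37.5% in liver, and 4.8% and 2.9% in bone marrow. In spleen Txnrd3, the testis-enriched thioredoxin reductase, and the mitochondrial superoxide dismutase Sod2 rose by 1.91 and 0.78 on the log2 scale, and Sod3, Gpx3 and Selenop, all secreted proteins, fell by 2.33, 2.14 and 0.89. In liver Gpx3 rose (1.78 ± 0.15, 5.5e-06), while Gpx1, Prdx3 and Msrb1 fell by 2.45, 2.41 and 2.38.

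Upper-quartile scaling, as an alternative, gave a median log2 change of all genes of -0.23 in tumor and -0.27 in spleen, where TMM scaling gave -0.03 and -0.04, and shifted the split of calls from 858 up and 463 down to 580 and 837 in tumor, from 3036 and 3304 to 2139 and 4542 in spleen, and from 651 and 393 to 500 and 664 in bone marrow. DESeq2 gave a median of 0.23 in liver over the genes it tested, against 0.01. The signs of all called genes among the 10 were kept under each of these scalings.

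Over the 17 group means, some of the 10 genes tracked each other or a neighbor in the transcriptome, given as a description over 11231 genes whose points share mice and organs. Srxn1 and Txnrd1 were each other's closest match (Pearson r of log2 CPM 0.946). The 2 closest to Gclm were Gpx1 (0.964) and Cpox (0.962), a heme synthesis enzyme, and the closest to Gpx4 was its pseudogene Gpx4-ps2 (0.978), followed by Chchd6 (0.948). Slc7a11 was closest to Taf3 (0.931) and Fam133b (0.897), Nfe2l2 to Itga5 (0.942) and Clic4 (0.889), and Keap1 to Fadd (0.971) and Babam1 (0.952). Gclc was closest to Ipmk (0.947) and Slc30a1 (0.924), Acsl4 to Secisbp2l (0.965) and Fkbp11 (0.953), and Nqo1, with the loosest match, to C5ar2 (0.871) and Atp2c1 (0.857). After Srxn1, Txnrd1 was closest to Ctns (0.932).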

How the data were processed

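The authors deposited 1 table of expected counts per gene for the 49 libraries. Per the submitters' processing notes, the tools were RSEM 1.3.1, STAR 2.7.9a, FastQC 0.11.9 and cutadapt 3.5 with build mm10; the annotation release and the strand setting are not given in the sources used here. In each library 4.64 to 7.92% of the values of all 55487 genes, zeros included, were not whole, and expected counts were rounded before testing. Gene symbols and positions were matched for 55227 of the 55487 genes (GENCODE M21, GRCm38).

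Levels are CPM with TMM scaling over all 49 libraries (prior count 2 for log2 CPM). Fold changes come from edgeR 4.0.16 (R 4.3.3, quasi-likelihood test, filterByExpr at its default minimum of 10 counts, p adjusted over all genes tested after Benjamini and Hochberg, threshold 0.05), fitted per organ on 3 against 3 libraries and scaled within that fit; for associated cells against bulk liver this scale lies 0.16 (log2) above the common one, and in the other comparisons within -0.020 to 0.036 of it. Standard errors are the absolute log2 fold change divided by the square root of F. The script was tested on simulated data. DESeq2 1.42.0, upper-quartile scaling, no filter on low counts, removal of mitochondrial genes, a replicate block, the spread over 48 libraries and each library left out were run as alternatives. No pair of replicates was a duplicate (chi-square per degree of freedom at least 8.44). The mouse number pairs bulk tissue and nanoparticle-associated cells because, per the labels, both come from the same mouse. Deviations from the group means correlated from -0.32 to 0.74 (median 0.13) between same-numbered libraries of these fractions. Between differently numbered ones they correlated from -0.76 to 0.40 (median -0.01). Between BP and PBS mice the numbers are shared by name only. Beyond the 10 genes, the 3 genes of each list with the largest change in each direction among those past the threshold, with a log2 CPM averaging 2 or more, were to be named, and per gene the 2 with the most alike pattern over the 17 group means. One of the latter is not reported here. The genes and lists were chosen with earlier results of these data known. Standard deviations and standard errors include the spread between mice, and the limit set by a count of 0 covers counting error only.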

Additional observations from a re-analysis of the deposited data

Results flagged for a closer look

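The step from bulk tissue to nanoparticle-associated cells differed among tumor, spleen, liver and bone marrow for 8 genes (edgeR joint F-test, adjusted p 0.000148 for Slc7a11, 0.000306 for Srxn1, 0.00209 for Gclm, 7.04e-07 for Gclc, 5.99e-05 for Txnrd1, 0.0011 for Nfe2l2, 0.0148 for Keap1 and 0.00632 for Acsl4), as it did for 58.3% of all genes tested. With 1 mouse left out, the result was lost for Keap1 (adjusted p 0.0685 without mouse 1 and 0.295 without mouse 3), Acsl4 (0.116 without mouse 1) and Gclm (0.0801 without mouse 3).

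The single library of nanoparticle-associated lymph node cells (BP mouse 2) entered no comparison, and its values have no replicate check. It lay above all 6 bulk lymph node libraries for Slc7a11 (17.4 CPM against 3.46 to 16.3), Srxn1 (39.0 against 7.16 to 24.1), Gclc (59.0 against 16.1 to 21.5), Txnrd1 (105.8 against 37.7 to 52.7) and Nfe2l2 (119 against 52.5 to 66.4). Gpx4 (114 against 188 to 1233 CPM) and Keap1 (33.0 against 51.5 to 68.6 CPM) lay below all 6. Nqo1, Gclm and Acsl4 lay within the bulk range. The dissociation genes summed to 5305 CPM in this library and to 232 to 386 in bulk lymph node.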

How the results depend on the processing

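The calls in spleen, liver and bone marrow for Slc7a11 held in each alternative run. The causes of the changes that follow were not tested. With upper-quartile scaling, the log2 change between BP and PBS reversed to -0.0105 for Gclc in lung, -0.00986 for Gpx4 in spleen and -0.00483 for Keap1 in spleen. Without a filter on low counts, the log2 change between BP and PBS reversed to -0.000786 for Nfe2l2 in tumor and 0.0176 for Srxn1 in lung. Without a filter on low counts, the log2 change between associated cells and bulk reversed to 0.0106 for Nqo1 in spleen and -0.12 for Srxn1 in liver. Without a filter on low counts, the number of genes called was 49 for BP in liver, 27 for BP in bone marrow and 75 for the difference of the BP effect among organs. With mitochondrial genes removed, the log2 change between BP and PBS reversed to -0.00617 for Gclc in lung. With mitochondrial genes removed, the log2 change between associated cells and bulk reversed to -0.0498 for Srxn1 in liver. With the spread over 48 libraries, the log2 change between BP and PBS reversed to 0.00696 for Srxn1 in lung. With the spread over 48 libraries, the log2 change between associated cells and bulk reversed to 0.0133 for Nqo1 in spleen and -0.15 for Srxn1 in liver. With the spread over 48 libraries, the number of genes called was 1482 for BP in tumor, 1 for BP in lymph node, 5770 for associated cells in tumor and 373 for associated cells in bone marrow. With DESeq2, the log2 change between BP and PBS reversed to 0.00215 for Srxn1 in lung. With DESeq2, the log2 change between associated cells and bulk reversed to 0.0612 for Nqo1 in spleen and -0.0520 for Srxn1 in liver. With DESeq2, the number of genes called was 177 for BP in tumor, 11 for BP in lymph node, 29 for BP in liver, 3 for BP in bone marrow and 3126 for associated cells in tumor.

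With mouse number as a replicate block, associated cells against bulk gave 625 genes called in tumor and 2719 genes called in bone marrow, and the log2 change between BP and PBS reversed to 0.00511 for Srxn1 in lung and 0.00378 for Gclc in liver. BP and PBS mice share only a number, and the block changed no call of the 10 genes between them.

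Leaving out 1 library or mouse at a time, the number of genes called ran from 0 to 1 for BP in lung, from 1 to 9 for BP in liver, from 0 to 1 for BP in bone marrow, from 20 to 1935 for associated cells in tumor, from 289 to 1899 for associated cells in bone marrow, from 0 to 444 for the difference of the BP effect among organs and from 6193 to 7038 for the difference of the step to associated cells among organs. Leaving out PBS mice alone, the difference of the BP effect among organs gave 0 to 6 genes. In tumor the log2 change between BP and PBS crossed 0, running from -0.24 to 0.23 for Nfe2l2, from -1.20 to 0.0747 for Nqo1 and from -0.0419 to 0.12 for Srxn1. In lung the log2 change between BP and PBS crossed 0, running from -0.25 to 0.0262 for Acsl4, from -0.21 to 0.20 for Gclc, from -0.18 to 0.0210 for Gclm, from -0.19 to 0.63 for Gpx4, from -0.0844 to 0.13 for Keap1, from -0.0442 to 0.15 for Slc7a11, from -0.11 to 0.10 for Srxn1 and from -0.29 to 0.0357 for Txnrd1. In lymph node the log2 change between BP and PBS crossed 0, running from -0.00598 to 0.63 for Acsl4, from -0.0138 to 0.17 for Keap1, from -0.46 to 0.0913 for Nqo1 and from -0.16 to 0.00287 for Txnrd1. In spleen the log2 change between BP and PBS crossed 0, running from -0.12 to 0.38 for Gclc, from -0.36 to 0.56 for Gclm, from -0.27 to 0.21 for Gpx4, from -0.0943 to 0.0933 for Keap1, from -0.0353 to 0.0686 for Nfe2l2, from -0.31 to 0.47 for Nqo1, from -0.29 to 0.11 for Slc7a11 and from -0.0462 to 0.27 for Srxn1. In liver the log2 change between BP and PBS crossed 0, running from -0.10 to 0.11 for Acsl4, from -0.17 to 0.13 for Gclc, from -0.12 to 0.16 for Keap1 and from -0.0384 to 0.25 for Srxn1. In bone marrow the log2 change between BP and PBS crossed 0, running from -0.13 to 0.0148 for Acsl4, from -0.00183 to 0.25 for Gclm, from -0.23 to 0.15 for Slc7a11 and from -0.0665 to 0.22 for Srxn1. In tumor the log2 change between associated cells and bulk crossed 0, running from -0.44 to 0.54 for Acsl4. In spleen the log2 change between associated cells and bulk crossed 0, running from -0.41 to 0.43 for Nqo1. In liver the log2 change between associated cells and bulk crossed 0, running from -0.0347 to 0.0402 for Srxn1 and from -0.16 to 0.0305 for Txnrd1. In bone marrow the log2 change between associated cells and bulk crossed 0, running from -0.0430 to 0.32 for Gclm, from -0.24 to 0.0835 for Gpx4 and from -0.34 to 0.0491 for Srxn1. None of these reversals was of a called value. Counts as low as 0 to 7 in bulk liver limit the size given for Slc7a11.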
